A study of Homo sapiens with 3 samples.

Results

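The peaks described here lie in 9 centromeric intervals of the human genome, those of chromosomes 2, 4, 8, 13, 14, 18, 20, 21 and 22, whose arrays consist largely of suprachromosomal family 2 alpha satellite. They come from a ChIRP-seq experiment (chromatin isolation by RNA purification) against KCNQ1OT1, a long noncoding RNA of the imprinted KCNQ1 domain, carried out on HEK293T, a human cell line established from embryonic kidney. In this assay probes complementary to an RNA capture it with its crosslinked chromatin, and the attached DNA is sequenced. The odd probe set, the even probe set and an input without probes gave 1 library each. All 3 groups are HEK293T cells with no treatment named in the labels, and the analysed values are those of 1 merged peak list. A peak was taken as a member when its midpoint fell inside an interval, given in GRCh38. By that rule 577 of the 4889 listed peaks were members, 12.2% (Wilson 95% interval 11.3 to 13.1) of the 4741 peaks on the primary chromosomes. The intervals span 26.4 Mb, 0.855% of the annotated length of those chromosomes, and held 38.7% of the 1491 peaks on their 9 chromosomes.

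Alpha satellite is the tandem repeat on which human centromeres form. Its monomers are joined into higher-order repeat units that recur along an array with little change, and in family 2 a pair of monomer types alternates. Many of its monomers carry the CENP-B box, the site bound by the centromere protein CENP-B, and the arrays are flanked by older, less regular alpha satellite and by segmental duplications. The arrays of chromosomes 13 and 21, and likewise those of 14 and 22, are known to be almost alike. In GRCh38 the arrays are stand-in models assembled from reads, so a position inside an array is a position in the model and need not be that of the same repeat in a chromosome of HEK293T cells. Chromosomes 9 and 15 also carry family 2 arrays but lie outside the rule and served as a comparison.

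With 1 library per group and 1 merged list there were no replicates. Differences below therefore have no replicate error beside them, and none was tested. The number of reads behind the peaks is unknown. Alignment settings are not given, so how reads that match several repeat copies were placed is unknown too. Whether the values of an array belong to that array alone was not tested. Intervals of densities (exact Poisson) and shares (Wilson), all at 95%, cover counting error alone and take peaks as independent, which neighbours on 1 array are not. The fold enrichment and −log10 p of a peak are the authors' values for that peak. The sources used here do not say how much the odd pulldown or the input contributed to either. Whether a peak marks binding of KCNQ1OT1 was not tested.

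The number of peaks for their length divided the intervals into a dense and a sparse set. The interval of chromosome 4 (49500000 to 51900000) was densest, with 98 peaks or 40.8 per Mb (33.2 to 49.8). That of chromosome 20 (25600000 to 30100000) held 153 peaks, the most of any, or 34.0 per Mb (28.8 to 39.8). Chromosome 18 (15400000 to 20900000) followed with 150 peaks or 27.3 per Mb (23.1 to 32.0), and chromosome 8 (43500000 to 46600000) with 70 peaks or 22.6 per Mb (17.6 to 28.5). Neighbours in this order had overlapping intervals, whereas chromosome 4 lay above 18 and 8 without overlap. A step separated these 4 from the other 5. The order within these 4 depends on the bounds. Per Mb between the first and last peak the densities were 45.4 on chromosome 4, 37.7 on 20, 36.9 on 8 and 29.5 on 18. The other 5 had 10.6 to 15.2. In the gene-free core of chromosome 20, described below, the density was 62.3 per Mb.

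In the sparse set the highest density was that of chromosome 22 (12900000 to 15100000), with 25 peaks or 11.4 per Mb (7.35 to 16.8). Chromosome 14 (16000000 to 18200000) had 23 peaks or 10.5 per Mb, and chromosome 13 (16000000 to 18100000) had 20 or 9.52 per Mb. Chromosomes 2 (92000000 to 94200000) and 21 (10800000 to 13000000) had 19 peaks each, 8.64 per Mb (5.20 to 13.5). These 5 intervals could not be told apart by counting error. The set holds chromosome 2 and the 4 acrocentric chromosomes among the 9, those with a very short p arm.

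**Figure D1:**
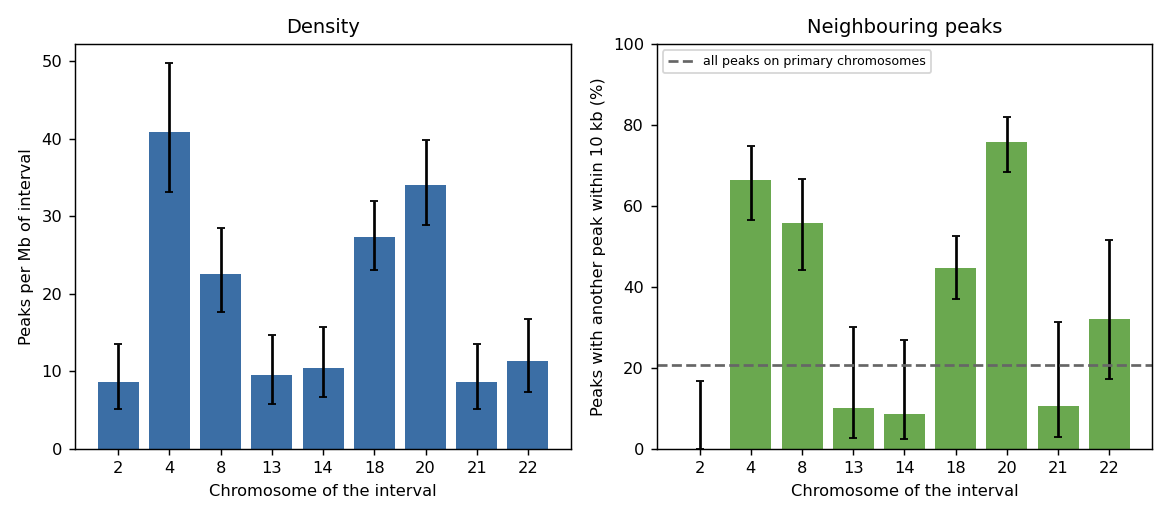
Left, peaks per Mb of each interval with exact Poisson 95% intervals; right, the share of peaks with another listed peak within 10 kb, with Wilson 95% intervals and the share over all peaks on primary chromosomes as a dashed line. Chromosomes 4, 8, 18 and 20 lie at 22.6 per Mb or more, and chromosomes 2, 13, 14, 21 and 22 at 11.4 per Mb or less. Chromosomes 4, 8, 18 and 20 lie above the dashed line. So does chromosome 22 at 32.0%, though its Wilson interval (17.2 to 51.6) includes the line.

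All 9 intervals were denser than the rest of their own chromosomes, where 914 peaks gave 0.901 per Mb (0.844 to 0.962). Over the 9 intervals together the density was 21.9 per Mb (20.1 to 23.7). In their gene-free cores, defined below, it was 23.8 per Mb, the nearer match for the gene-free stretches that follow. Stretches of at least 2 Mb without an annotated gene on chromosomes 3, 5, 6, 7, 10, 12 and 19, whose arrays are of family 1, had 470 peaks or 19.1 per Mb (17.4 to 20.9). Such stretches on chromosomes 9 and 15 had 80 peaks, 73 of them on chromosome 9. The stretch on chromosome 15 (4557208 to 19883613) takes in most of the short arm and that on chromosome 9 (43139881 to 60832661) the long-arm heterochromatin. Assembly gaps were not excluded, so their 2.42 peaks per Mb is not per assembled Mb and is not set against the 9 intervals.

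Inside each interval the peaks left both ends free. On chromosome 8 the first peak began 476 kb after the lower bound and the last ended 726 kb before the upper one, so that all 70 lay in 1.90 Mb, 61.2% of the interval. The largest occupied share was on chromosome 18, where peaks ran over 5.08 Mb, or 92.3%. Chromosomes 4 (89.9%) and 20 (90.1%) were nearly as full, and the sparse intervals lay between 70.5% on chromosome 2 and 82.7% on chromosome 14. Divided into 100 kb bins, chromosome 4 had a peak in 23 of 24 bins and chromosome 18 in 49 of 55, against 26 of 45 on chromosome 20 and 12 of 22 on chromosome 21. The fullest bin, with 12 peaks, was on chromosome 20.

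**Figure D2:**
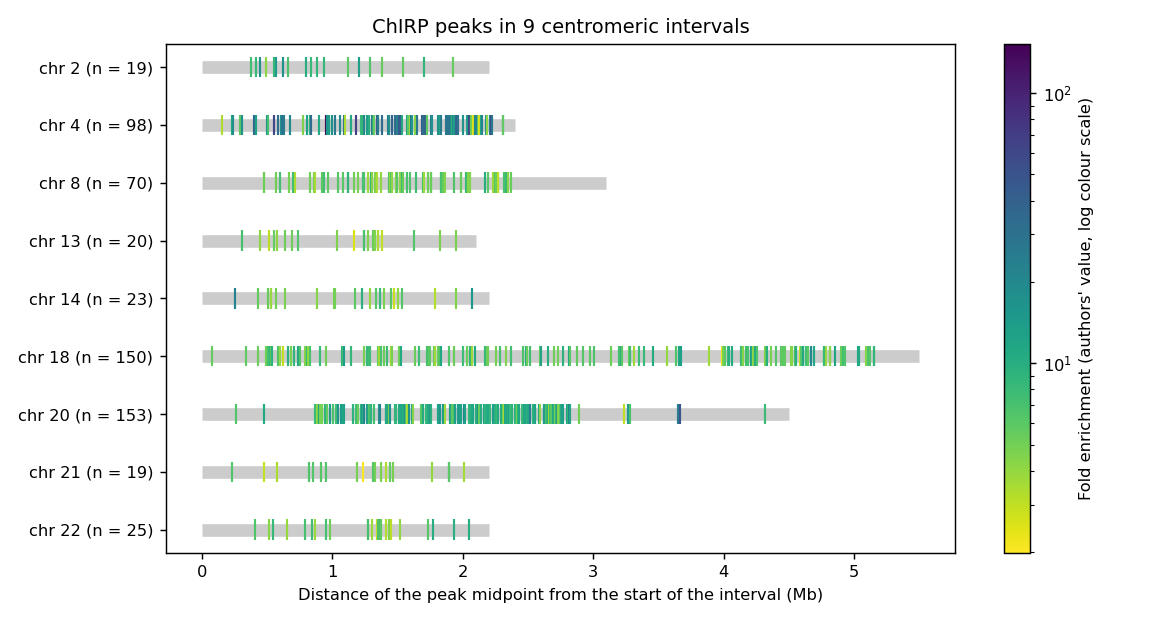
Each mark is the midpoint of 1 peak, placed by its distance in Mb from the start of its interval (grey bar) and coloured by fold enrichment on a log scale. Peaks cover chromosomes 4 and 18 almost end to end, crowd into the middle of chromosome 20 and are scattered on chromosomes 2, 13, 14, 21 and 22.

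The core of an interval was taken as its longest stretch without a gene in the RefSeq table for GRCh38, and the rest as flank. Chromosomes 13, 18, 21 and 22 had no gene in the interval at all, so core and flank could not be separated there. In the 4 others besides chromosome 20 the core made up 93.5% of the length or more. Core held 569 of the 577 members, 98.6% (97.3 to 99.3), on 90.5% of the length, and all 8 flank peaks were on chromosome 20. The share thus says little outside that chromosome, and which peaks count as flank depends on this definition of core. With a modelled centromere region as core, an alternative given below, 6 of the 11 peaks outside it were on chromosome 4 and 2 on 20.

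Chromosome 20 has genes in both flanks and a core (26251589 to 28580632) of 51.8% of the interval. The core held 145 of its 153 peaks, 62.3 per Mb, and the flanks 8, or 3.69 per Mb. Their fold was alike in the middle, with medians of 10.3 in the core and 9.51 in the flanks, as was their width (2032 and 1890 bp). The flank folds were more spread, from 3.07 to 48.1. The peaks with folds of 48.1 (29263435 to 29266538, 3104 bp) and 24.0 (29252375 to 29254866, 2492 bp) lay in the upper flank close to each other. No gene overlapped either. The nearest, the pseudogene LOC110467521 (29297095 to 29297246), began 30.6 kb from the first and 42.2 kb from the second. After these a stretch of 649 kb had no peak, the largest gap between neighbouring members in any of the intervals.

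The intervals contain 68 annotated genes, most of them pseudogenes, with 3 protein-coding and 15 lncRNA genes among them. One had a member peak, against 3.09% of all annotated genes on the primary chromosomes with any listed peak, so nothing is read from this count. It was FAM182A, a lncRNA gene on chromosome 20 (26054614 to 26086917). That peak (26080271 to 26080877) was 607 bp wide with a fold of 11.03 and ended 6.04 kb before the higher end of the gene. None of the 14 promoter windows of the RefSeq table inside the intervals overlapped a member, and 0.125% of all its windows on the primary chromosomes overlapped a listed peak. The nearest protein-coding gene to an outermost member was DCUN1D4 on chromosome 4 (51833884 to 51916837), whose product acts in neddylation, 19.9 kb beyond the last peak. The next nearest was ZNF337 on chromosome 20 (25673195 to 25696853), 165 kb below the first.

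The next listed peak outside a bound lay from 43.0 to 1760 kb away, and none was listed below the intervals of 13 and 14. The rest of the 9 chromosomes had 0.901 peaks per Mb, and whether these distances exceed what that density gives was not tested. The closest on any side was on chromosome 14 at 18241823 to 18244209, 43.0 kb beyond the bound, with a fold of 13.8, against 15.2 for the last member inside. On chromosome 4 the next peak above (51984287 to 51985811) was 85.0 kb from the bound with a fold of 10.5, and the last inside had 5.77. On chromosome 2 the next peak above was 1760 kb away, and on chromosome 18 it was 1409 kb away.

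Fold enrichment, the ratio of pulldown over background that the peak caller gives, was highest on chromosome 4. Its 98 peaks ran from 2.45 to 152 with a median of 18.02 (quartiles 10.6 and 28.3). Chromosome 20 came next with a median of 10.3 (quartiles 7.90 and 12.7), then chromosome 2 with 8.22 and chromosome 18 with 6.57. The medians of the others were 5.70 on chromosome 22, 5.21 on 8, 5.11 on 21, 5.00 on 14 and 4.79 on 13. The quartile ranges of chromosomes 4 and 20 overlapped between 10.6 and 12.7, while that of chromosome 4 lay wholly above the quartile ranges of the other 7.

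Among the members 187 had a fold of at least 10, 32.4%, against a background of 44.0% over all peaks on the primary chromosomes. The members thus fell short of the background as a whole. By chromosome the share was 76.5% on chromosome 4 (75 of 98), 51.6% on 20 (79 of 153), 21.1% on 2 (4 of 19) and 16.7% on 18 (25 of 150). None of the 70 peaks on chromosome 8 reached it, the highest there being 9.81, and none did on 13 or 21. Chromosomes 14 and 22 had 2 such peaks each. Of the 52 members with a fold of 20 or more, 44 were on chromosome 4.

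KCNQ1OT1 itself (chromosome 11, 2608328 to 2699994) is set beside these values, and whether it is a fair scale for them was not tested. Its 17 peaks had folds from 11.5 to 45.9 with a median of 20.4. A fold of at least the lowest of these was found in 139 members, 24.1%, against 39.2% of all peaks on the primary chromosomes. On chromosome 4 it was found in 68 of 98, on chromosome 20 in 55 of 153 and on chromosome 18 in 10 of 150. On chromosomes 8, 13, 21 and 22 no member reached it.

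**Figure D3:**
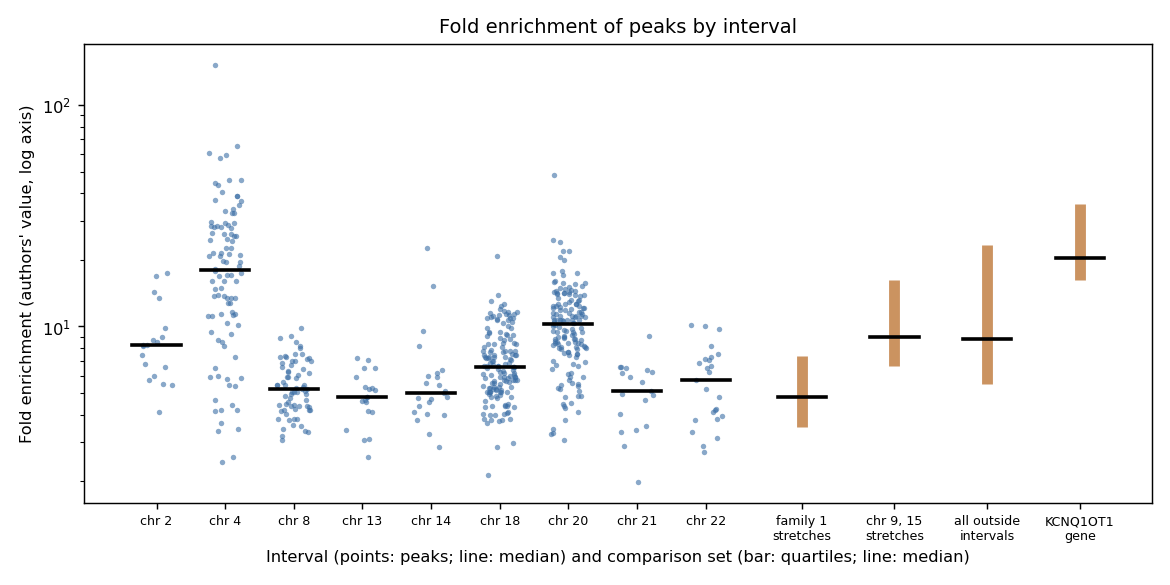
Fold enrichment on a log axis, with 1 point per peak and a line at the median for each interval, and quartile bars with medians for 4 comparison sets. The median of chromosome 4, 18.02, is near the 20.4 of the KCNQ1OT1 gene, and those of chromosomes 8, 13, 14, 21 and 22 are between 4.79 and 5.70.

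Over all members the median fold was 7.31 (quartiles 5.19 and 11.4). Family 1 stretches had 4.81 (3.53 and 7.35), stretches on chromosomes 9 and 15 had 8.99 (6.63 and 16.2), and primary-chromosome peaks outside the intervals had 8.80 (5.50 and 23.4). The quartile ranges of all these sets overlap. The median of an interval ran from 4.79 to 18.02, and that of a family 1 stretch from 3.81 on chromosome 19 to 9.89 on chromosome 3. The median −log10 p followed the same lines, with 224 on chromosome 4, 62.2 on 20 and 12.1 on 13. The list starts at 8.003, and 14 of 70 peaks on chromosome 8, 4 of 20 on 13, 7 of 23 on 14 and 5 of 25 on 22 lay below 10. The counts were 13 of 150 on chromosome 18, 2 of 153 on 20, 1 of 19 on 21, 1 of 98 on 4 and 0 of 19 on 2.

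The single peak with the highest fold among the members was on chromosome 4 at 50452814 to 50454417. It was 1604 bp wide with a fold of 152 and a −log10 p of 1534, ranked 4 by fold on the primary chromosomes. The member with the highest −log10 p, 1880, lay on the same array at 50677959 to 50681233 with a fold of 65.4. Outside chromosomes 4 and 20 the highest folds were 22.6 on chromosome 14 (16252806 to 16253390), 20.9 on 18 (20070792 to 20072701) and 17.4 on 2 (92448216 to 92452062). On chromosomes 13, 21 and 22 the highest were 7.19, 9.04 and 10.1.

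When the occupied span of chromosome 4 was cut into 5 equal parts, the medians from the lower to the higher end were 16.1, 16.1, 19.9, 24.4 and 18.7, while the number of peaks went from 11 and 13 to 23, 26 and 25. On chromosome 18 the medians of such parts lay between 6.16 and 7.31, and the last part held 48 of the 150 peaks against 23 to 31 in the others. On chromosome 20 the third part held 71 peaks and the last 3, and in the 4 parts with at least 15 peaks the medians lay between 7.59 and 10.7. The 3 peaks of the last part had a median of 24.0.

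Width told a different order. Member peaks had a median width of 1616 bp (quartiles 1146 and 2321), against 728 bp (533 and 1387) for primary-chromosome peaks outside the intervals and 602 bp (510 and 1139) on the remainder of the same chromosomes. A width of 2000 bp or more was found in 195 members, 33.8%, against a background of 12.8% of all peaks on the primary chromosomes. It was found in 29.8% of peaks in the family 1 stretches and 52.5% of those on 9 and 15. The share in the members overlapped that in the family 1 stretches by their Wilson intervals (30.1 to 37.8 and 25.8 to 34.1).

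Chromosome 2 had the widest peaks, with a median of 2591 bp, followed by chromosomes 4 (2043 bp), 20 (2007 bp), 18 (1465 bp) and 8 (1326 bp). The acrocentric medians were 974 bp on 13, 909 bp on 14, 877 bp on 22 and 813 bp on 21. The shares at 2000 bp or more were 14 of 19 on chromosome 2, 50 of 98 on 4 and 77 of 153 on 20, but 5 of 87 over the 4 acrocentric intervals. The widest member, on chromosome 2 at 92565090 to 92575067, measured 9978 bp with a fold of 14.3 and ranked 5 by width on the primary chromosomes. The widest on chromosomes 8 (7582 bp) and 20 (6950 bp) had folds of 6.99 and 6.91. Across the peaks of an interval, fold and width had a Spearman correlation of 0.43 on chromosome 4 (n = 98), 0.29 on 20 (n = 153), 0.29 on 8 (n = 70) and 0.22 on 18 (n = 150). It was 0.48 on chromosome 2 (n = 19), 0.29 on 22 (n = 25), 0.06 on 14 (n = 23), −0.19 on 13 (n = 20) and −0.24 on 21 (n = 19), so the intervals did not share a sign. These points share a library and an array, and the values are a description.

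**Figure D4:**
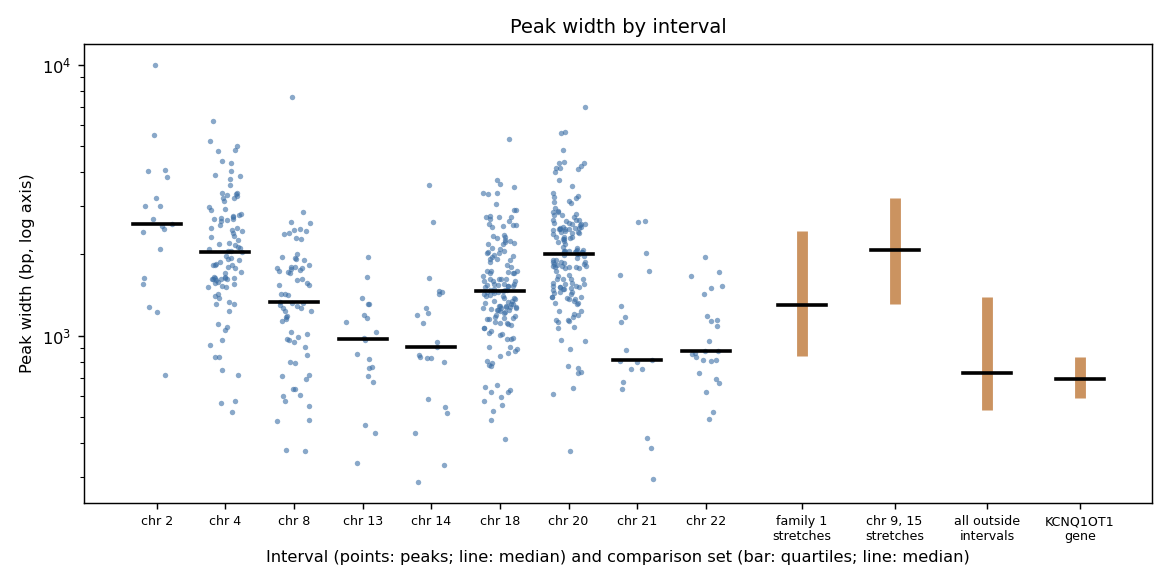
Peak width in bp on a log axis, with 1 point per peak and a line at the median for each interval, and quartile bars with medians for 4 comparison sets. Chromosome 2 has the highest median, 2591 bp, and the acrocentric chromosomes 13, 14, 21 and 22 lie between 813 and 974 bp.

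Clustering varied from array to array. Another listed peak within 10 kb, counted from edge to edge, was found for 301 members, 52.2% (48.1 to 56.2), against a background of 20.6% of all peaks on the primary chromosomes and 6.02% on the remainder of the same 9 chromosomes. In the family 1 stretches the share was 45.7% (41.3 to 50.3), and in those on 9 and 15 it was 51.25% (40.5 to 61.9). Both Wilson intervals overlapped that of the members. By chromosome the share of members was 75.8% on 20, 66.3% on 4, 55.7% on 8 and 44.7% on 18. It was 32.0% on 22, 10.5% on 21, 10.0% on 13 and 8.70% on 14. On chromosome 2 no peak had a neighbour that near, which by the Wilson interval allows up to 16.8%. A denser interval gives nearer neighbours by its density alone, and the shares are not corrected for it.

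Median gaps between neighbouring peaks were 8.70 kb on chromosome 20, 12.6 kb on 4, 18.7 kb on 8 and 20.96 kb on 18, and between 36.7 and 56.5 kb in the sparse intervals. Runs of 3 or more peaks with gaps up to 10 kb numbered 18 on chromosome 20, 9 on 4, 8 on 18 and 6 on 8, and there were none elsewhere. The longest had 10 peaks in 65.9 kb of chromosome 20 (28247752 to 28313608), with folds from 3.30 to 11.1. The longest runs on chromosomes 8 and 18 had 5 peaks, in 23.4 and 31.0 kb on chromosome 8 and in 31.3 kb on 18. On chromosome 4 they had 4. Chromosome 4, with the highest density per Mb of interval, thus had shorter runs than chromosome 20, whose peaks were packed into its core.

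The peaks of the 4 acrocentric intervals lined up with each other. For each pair of chromosomes the single offset was found at which most midpoints of one lay within 1 kb of a midpoint of the other. Between chromosomes 13 and 22 it matched 15 of 20 and 15 of 25 peaks, against 4 of the 20 at the next best offset at least 5 kb away. Between 14 and 22 it matched 12 of 23 and 12 of 25, between 13 and 14 it matched 11 of 20 and 11 of 23, and between 14 and 21 it matched 10 of 23 and 10 of 19. Between 21 and 22 the matches were 9 of 19 and 10 of 25, and between 13 and 21 they were 8 of 20 and 8 of 19. In these 6 pairs the best offset matched 1.80 to 3.75 times as many peaks as the next best. In the other 30 pairs of intervals, treated in the same way, this ratio was between 1 and 1.33 with a median of 1. Most of these 30 include an interval of the dense set, where many offsets can match about equally, which holds the ratio near 1. They are therefore not a like-for-like contrast. Only the pairs of chromosome 2 with an acrocentric interval join sparse intervals alone. There the best offset matched 3 or 4 peaks against 3 at the next best, with ratios of 1 to 1.33. The 9 pairs of an interval with chromosome 15, which has 7 peaks, matched 2 to 4 peaks, with ratios of 1 to 2 and a median of 1.33. Their range thus includes the 1.80 found between 21 and 22. Over all 19 pairs with chromosome 9 or 15 the ratio lay between 1 and 2 with a median of 1. The share of the smaller peak set that matched overlapped between these kinds of pairs. It was 42.1 to 75% in the acrocentric pairs, 13.3 to 47.4% in the other 30 and 28.6 to 57.1% with chromosome 15. Choosing the best offset builds in a number of matches, so the counts are descriptions.

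The offsets also closed on each other. Relative to chromosome 13 they were 122296 bp for chromosome 14, −5135469 bp for 21 and −2996943 bp for 22. The offsets found separately between 14 and 21, between 21 and 22 and between 14 and 22 differed from those implied through chromosome 13 by 35, 42.5 and 388.5 bp, all under the 1 kb window.

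With the offsets removed, the 87 acrocentric peaks fell into 45 columns of midpoints within 1 kb of the next. All 4 chromosomes had a peak in 5 columns, 3 chromosomes in 8 columns and 2 chromosomes in 10, while 22 columns held a single peak. Columns of at least 2 chromosomes held 65 of the 87 peaks, 74.7%, with 17 of 20 on chromosome 13, 20 of 25 on 22, 13 of 19 on 21 and 15 of 23 on 14. Peaks in shared columns and peaks alone had similar median folds, 5.00 and 5.14, and widths, 877 and 899 bp. No genome sequence was used here, so whether the lined-up places hold the same sequence was not tested. With each column counted once, the 577 members come to 535 places.

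**Figure D5:**
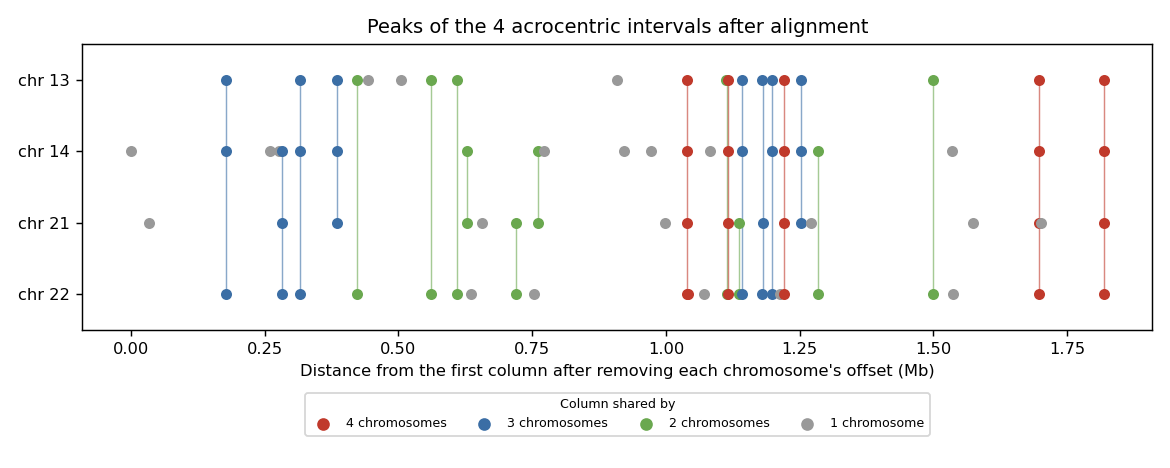
Midpoints of the 87 peaks on chromosomes 13, 14, 21 and 22 in Mb from the first column, after the offset of each chromosome was removed; points in the same column are joined and coloured by the number of chromosomes that share it. The 5 columns in red are shared by all 4 chromosomes, and grey points are the 22 peaks with no counterpart.

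Peaks that lined up did not always have equal folds. In the 23 shared columns the highest fold over the lowest had a median of 1.40 and ran from 1.04 to 4.27, and exceeded 2 in 4 columns. Of these 4, 1 with a ratio of 3.64 held 2 neighbouring peaks of chromosome 22, with folds of 2.90 and 7.25. Its ratio thus rests on the second of them and is not between counterparts alone. In the column with the closest agreement among those of 4 chromosomes the folds were 3.42 on 13, 2.86 on 14, 3.35 on 21 and 3.13 on 22. In the last column, at the higher end of the arrays, they were 4.78 on 13 (17947966 to 17949917), 15.2 on 14 (18070205 to 18072820), 3.57 on 21 (12812528 to 12814543) and 10.1 on 22 (14951041 to 14952997). The strongest acrocentric peak, with a fold of 22.6 on chromosome 14, had no counterpart on the other 3.

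The peak names carry running numbers from the even pulldown that rise along each chromosome, and many numbers are absent from the list. The sources used here do not say what the absent numbers stand for. Of the numbers that follow the first member of an interval, up to its last, so that the first member itself is left out, 71.7% were listed on chromosome 20 (152 of 212; Wilson 65.3 to 77.3). On chromosome 2 it was 4.88% (18 of 369; 3.11 to 7.58). The other 7 intervals lay between 24.8% on chromosome 8 and 37.5% on 22, with overlapping Wilson intervals. Chromosomes 2 and 4 thus had similar counts of running numbers, 369 and 308, in intervals of 2.2 and 2.4 Mb, but 19 and 98 listed peaks.

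Genes for the proteins that act at centromeres were looked at as a separate list of 38 genes, among them those of the CENP proteins, the kinetochore complex and the chromosomal passenger complex. Of these, 4 had a listed peak in the body or within 2 kb, 10.5%, against a background of 7.03% of protein-coding genes, a share near the background. They were DSN1 (fold 45.3), which encodes a kinetochore subunit, CENPP (32.7), CENPQ (6.76) and CENPT (5.78). None lies in the intervals.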

How the data were processed

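The authors deposited 1 merged peak list of 4889 rows and 10 columns, laid out as a MACS2 narrowPeak file. The submitters' processing notes name Bowtie2, MACS2 and GRCh38. The sources used here do not give versions, settings, the peak-calling control or how the pulldowns were combined. Per the list's layout, the authors deposited for each peak a fold enrichment (a linear ratio), −log10 of the p-value and a score. The score was not used. The deposited values served to describe, rank and filter peaks inside this list alone.

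Positions are printed counted from 1. Intervals were read from the rule, and a peak belonged by its midpoint. Genes and promoter windows came from RefSeq tables for GRCh38.p14, the gene table with 59679 genes; a few of its entries carry positions on alternate loci, so nearest genes on acrocentric short arms are not given. Assembly gaps were not excluded from lengths. Shares have Wilson and densities exact Poisson 95% intervals; no test was run over peaks. Offsets between chromosomes were searched over all midpoint differences. The functions were tested on simulated lists. Python 3.11.15, pandas 2.3.3 and scipy 1.17.1 were used.

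Peaks named are, for each interval, those with the highest fold, the highest −log10 p and the greatest width, the longest run, and genes with a member; others were chosen after their values were seen, as was the comparison of offsets. The members and lists were chosen with earlier results of these data known. Alternatives were stricter thresholds, whole-peak membership, other cores and distances, and leaving out each chromosome. Sequences of the peaks were not analysed here.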

Additional observations from a re-analysis of the deposited data

How the results depend on the processing

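With peaks of −log10 p of 20 or more alone, the median member fold was 10.7 and the median width 1957 bp; with a fold of 5 or more they were 8.75 and 1713 bp. Leaving out low folds raises the median fold by construction; the cause of the move in width was not tested. The share of members with a neighbour was 32.2% within 5 kb and 91.5% within 50 kb. With a core free of protein-coding genes alone, 100% of members were in the core. With the modelled centromere region, its bounds rounded to 0.1 Mb from general knowledge of the assembly, 98.1% were. The 11 peaks outside that region were 6 on chromosome 4, 2 on 8, 2 on 20 and 1 on 18, so the place of the flank peaks changed. Leaving out 1 chromosome at a time gave a share of listed peaks from 8.94% (without 20) to 11.8%, a core share from 98.1% to 100% (without 20), a median fold from 6.50 (without 20) to 8.05, a median width from 1481 (without 20) to 1665 bp and a neighbour share from 43.6% (without 20) to 54.8%. The count of acrocentric peaks in shared columns was 60 of 87 with a window of 500 bp, 67 of 87 with 2 kb and 46 of 70 with −log10 p of 10 or more, all chosen after seeing the data. The share of listed peaks in the intervals and the number of centromere genes with a peak stayed within counting error or 1.5 times under the other alternatives run. The unknown depth limits all counts, since weaker sites may lie under the threshold of the list.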
